A study of Mus musculus with 6 samples.

Results

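The RNAs described here are 7 small nucleolar RNA (snoRNA) host RNAs, *Snhg1*, *Snhg3*, *Snhg5*, *Snhg6*, *Snhg8*, *Snhg12* and *Gas5*, and 2 long RNAs that stay in the nucleus, *Malat1* and *Neat1*. They were taken from the deposited table of exon read counts by gene symbol. All 9 were found among its 23453 gene rows, and all 9 passed the filter on low counts that kept 12423 genes for testing. The cells were splenocytes of OT1 mice of the C57BL/6 strain, whose transgenic T cell receptor recognises an ovalbumin peptide. All cultures received that peptide for 48 h. They were then held for 8 h in TCM (3 libraries) or in FCM (3 libraries titled Vehicle). The labels expand neither abbreviation, call the cells cytotoxic T lymphocytes, and do not say whether replicates came from separate animals or cultures, so the spread behind each p-value may be technical.

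The 2 deposited tables contradict each other on which columns are TCM. In 6 of 6 columns of the normalized table the values were a constant multiple of the count column titled with the other group and the same replicate number, and 0 columns matched their own title. TCM and Vehicle below are the titles of the count table. Under the titles of the normalized table every direction below is reversed with its size kept.

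Total counts were 17166687 to 21197117 in TCM and 18729982 to 25789381 in Vehicle, and the 9 RNAs had 868 to 119503 counts each per library. Replicate 1 stood apart in both groups: the chi-square per gene was 61.7 to 108 in pairs of replicates that held it, against 7.29 in TCM and 5.09 in Vehicle for replicates 2 and 3. The labelled cell type was checked on marker lists. Levels are counts scaled to library size (CPM) with the trimmed mean of M-values (TMM). T cell markers (8 genes) summed to 774 to 882 CPM in TCM and 705 to 804 CPM in Vehicle, with none at 0. Neutrophil markers (10 genes, none at 0) summed to 1149 to 2195 CPM in TCM and 8164 to 12700 CPM in Vehicle, above the T cell markers in every library. B cell markers (5 genes) summed to 888 to 1086 CPM in TCM and 1685 to 2045 CPM in Vehicle, and macrophage markers (6 genes in the table) to 135 to 139 CPM in TCM and 507 to 602 CPM in Vehicle. Of the tested markers, 9 of 10 of neutrophils, 4 of 5 of B cells and 4 of 6 of macrophages were called lower in TCM. The macrophage marker *Cd14* was called higher (log2 fold change 0.70). Of the 8 T cell markers, *Cd3d* was called higher (0.76), *Cd8a* was called lower (-0.67) and 6 did not pass. Markers of dendritic cells summed to 7.13 to 7.27 CPM in TCM and 22.4 to 25.0 CPM in Vehicle. In bulk RNA, fewer cells of a type and less RNA per cell cannot be told apart. The part of cell makeup in the results below was not tested.

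A snoRNA host gene is transcribed and spliced like a messenger RNA, and its introns carry the snoRNAs that guide chemical modification of ribosomal and spliceosomal RNA. The intron is cut out and trimmed to the snoRNA, while the spliced exons of many noncoding hosts reach the cytoplasm, meet ribosomes and are destroyed by nonsense-mediated decay. Many hosts start with a C followed by a run of pyrimidines, the 5′ terminal oligopyrimidine (TOP) start shared with ribosomal protein messenger RNAs. *Gas5* is named for its accumulation in growth-arrested cells. *Malat1* is an abundant RNA of nuclear speckles, and *Neat1* is the scaffold around which paraspeckles form. Both end in a triple helix in place of a poly(A) tail, in *Neat1* only the long isoform.

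The first 40 bases of 1 GENCODE M21 transcript of each host are shown because many snoRNA hosts share this kind of start, with *Malat1* and *Neat1* beside them, and capitals mark a C with at least 4 pyrimidines after it. Transcripts without such a start were passed over wherever a host had any with it, so the starts shown were selected for it. Where several transcripts carried such a start, the one shared by most of them was chosen. For *Snhg1*, *Malat1* and *Neat1*, which had none, the longest transcript is shown.
Snhg6: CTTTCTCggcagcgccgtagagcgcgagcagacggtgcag
Snhg12: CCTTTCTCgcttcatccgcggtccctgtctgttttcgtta
Snhg8: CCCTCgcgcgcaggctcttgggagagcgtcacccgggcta
Snhg3: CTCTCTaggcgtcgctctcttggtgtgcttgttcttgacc
Gas5: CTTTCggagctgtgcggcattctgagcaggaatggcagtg
Snhg5: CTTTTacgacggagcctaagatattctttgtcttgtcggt
Snhg1: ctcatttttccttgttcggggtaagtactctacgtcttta
Malat1: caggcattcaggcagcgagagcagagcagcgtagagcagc
Neat1: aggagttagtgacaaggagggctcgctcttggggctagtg

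Of the 7 hosts, 6 had at least 1 annotated transcript with such a start, and *Snhg1* had none. These were 12 of the 72 annotated transcripts of the hosts (16.7%). Among the tested genes with annotated transcripts, 1228 of 11681 (10.5%) had one, as did 2.1% of their transcripts. Annotated starts of a host differ between transcripts and between sources. In RefSeq (GRCm38.p6) the start of *Snhg8* also matched, at another position, while those of *Snhg12*, *Snhg3* and *Snhg5* did not. Those of *Snhg12* and *Snhg5* lay close to the starts shown. For *Gas5*, 1 RefSeq start matched, with the same first bases as the one shown, and another did not.

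The snoRNAs printed next lie inside 3 of the hosts and carry the box C (TGATGA) and box D (CTGA) motifs of the C/D class, in capitals. They are shown because their own rows in the count table are set against the host further on. *Snord87* lies in an intron of *Snhg6* at chr1:9942463-9942549 on the minus strand, *Snord99* inside *Snhg12* at chr4:132310691-132310764 on the plus strand, and *Snord47* inside *Gas5* at chr1:161038082-161038158 on the plus strand (GRCm38).
Snord87: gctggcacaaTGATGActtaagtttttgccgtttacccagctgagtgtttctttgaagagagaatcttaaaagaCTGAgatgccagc
Snord99: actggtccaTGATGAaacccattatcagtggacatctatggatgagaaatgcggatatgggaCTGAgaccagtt
Snord47: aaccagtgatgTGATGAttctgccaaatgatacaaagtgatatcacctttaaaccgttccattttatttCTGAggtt

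The stretches of *Malat1* and *Neat1* at the 3′ end of the mature RNA are shown because they hold 2 motifs that take part in the triple helix. The remaining strand of the helix was not searched for and is not marked. The capitals mark a U-rich TTTTGCTTTT and an A-rich AAAAAGCAAAA, searched on the transcript strand. The *Malat1* stretch covers positions 6622 to 6691 of its 6983-base transcript, and the *Neat1* stretch positions 20695 to 20771 of its 20771-base long transcript. The motif starts were 35 bases apart in *Malat1* and 42 bases apart in *Neat1*.
Malat1: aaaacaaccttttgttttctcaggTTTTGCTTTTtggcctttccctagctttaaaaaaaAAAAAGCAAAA
Neat1: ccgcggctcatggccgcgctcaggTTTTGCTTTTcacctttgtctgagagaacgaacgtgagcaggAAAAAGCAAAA

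Both motifs in this order within 100 bases occurred in 3 of 55341 annotated genes (0.00542%). Among the tested genes, 2 of 11681 had them, and these were *Malat1* and *Neat1*. The patterns searched for were the exact sequences marked above, so the match of these 2 RNAs was given in advance.

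The comparison of TCM with Vehicle asks how the 8 h exposure was reflected in these RNAs. Of the 7 hosts, 4 rose in TCM (*Snhg6*, *Snhg12*, *Snhg8* and *Snhg3*), 0 fell and 3 did not pass the test (*Snhg1*, *Gas5* and *Snhg5*), and all 7 fold changes were positive. Both *Malat1* and *Neat1* fell. A call is an adjusted p under 0.05 in edgeR's quasi-likelihood test with Benjamini-Hochberg adjustment over all tested genes. Among all tested genes 58.8% were called, 28.8% higher and 30.0% lower in TCM. The median log2 fold change of the 7 hosts was 0.65, against -0.02 over all tested genes. In 5 of the 9 RNAs the 2 groups did not overlap, as in 64.2% of all tested genes.

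*Snhg6*, the host of *Snord87*, lies on chromosome 1 (9941959 to 9944118, minus strand) and is annotated as noncoding. Its level was 289, 581 and 599.9 CPM in the 3 TCM libraries, against 49.6, 67.1 and 67.7 CPM in the 3 Vehicle libraries. All TCM libraries lay far above all Vehicle libraries. The means were 490 ± 175 CPM in TCM and 61.5 ± 10.3 CPM in Vehicle (SD, n = 3 each), a 7.96-fold difference (log2 2.99 ± 0.29 SE, edgeR adjusted p = 4.56e-05). Within TCM, replicate 1 was well below the other libraries. *Snhg6* shares 127 exon bases with *Mcmdc2* on the other strand, which had 1, 0 and 3 counts in TCM and 5, 7 and 3 counts in Vehicle.

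*Snhg12* lies on chromosome 4 (132308623 to 132311024, plus strand) and carries 4 snoRNAs. Its level was 85.3, 127 and 141 CPM in TCM, against 45.1, 55.5 and 55.4 CPM in Vehicle. All TCM libraries were above all Vehicle libraries. *Snhg12* rose 2.26-fold, to 118 ± 29.0 CPM in TCM against 52.0 ± 5.98 CPM in Vehicle (log2 1.18 ± 0.20 SE, edgeR adjusted p = 0.000936).

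*Snhg8*, the host of the H/ACA snoRNA *Snora24*, lies on chromosome 3 (123507552 to 123508404, minus strand). It had 59.1, 103 and 115 CPM in TCM, against 40.4, 56.5 and 53.1 CPM in Vehicle. The groups did not overlap, but TCM replicate 1 was close to the Vehicle libraries. *Snhg8* rose 1.85-fold (log2 0.89 ± 0.24 SE, edgeR adjusted p = 0.0119). The call was lost without TCM replicate 2 (adjusted p = 0.0514), and with the trend of level on transcript length removed the difference was 0.21 on the log2 scale (adjusted p = 0.129).

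*Snhg3*, the host of *Snora73a* and *Snora73b*, lies on chromosome 4 (132348014 to 132353686, minus strand), and 5592 of its 5673 bases lie within the span of *Rcc1*. Its level was 66.7, 111 and 123 CPM in TCM, against 47.4, 71.9 and 72.6 CPM in Vehicle. TCM replicate 1 lay below 2 of the 3 Vehicle libraries, so the groups overlapped. *Snhg3* rose 1.57-fold (log2 0.65 ± 0.25 SE, edgeR adjusted p = 0.0471), close to the threshold. The call was lost when TCM replicate 2, TCM replicate 3 or any 1 Vehicle library was left out (adjusted p = 0.0619 to 0.145). After removal of the length trend the difference was 0.03 on the log2 scale (adjusted p = 0.853).

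The 3 remaining hosts had higher mean levels in TCM but missed the threshold. *Snhg1*, also called the U22 host gene and found on chromosome 19 (8723475 to 8726443, plus strand), had 156, 244 and 263 CPM in TCM, against 137, 175 and 173 CPM in Vehicle. Its difference was 0.45 ± 0.21 SE on the log2 scale (edgeR adjusted p = 0.0909). *Gas5*, on chromosome 1 (161034422 to 161038539, plus strand), had 437, 613 and 701 CPM in TCM, against 417, 474 and 468 CPM in Vehicle. Its difference was 0.37 ± 0.20 SE (adjusted p = 0.135). *Snhg5*, on chromosome 9 (88521050 to 88522929, minus strand) and the host of the *Snord50* pair, had 46.2, 61.5 and 62.3 CPM in TCM, against 50.3, 45.3 and 44.0 CPM in Vehicle. Its difference was 0.28 ± 0.14 SE (adjusted p = 0.117). In all 3, TCM replicate 1 overlapped the Vehicle libraries and TCM replicates 2 and 3 were above them.

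The calls of these 3 depended on how replicate 1 of TCM was treated. A block on the replicate number assumes that same-numbered libraries are paired, which the labels do not state. The values set number 1 apart but do not pair numbers 2 and 3. With that block *Snhg1* (log2 0.43, adjusted p = 0.000196), *Gas5* (log2 0.34, adjusted p = 0.00411) and *Snhg5* (log2 0.28, adjusted p = 0.0126) passed. With the block, 7 of 9 RNAs were called higher and 2 lower, against 36.3% and 37.0% of all tested genes. Without TCM replicate 1 the 3 also passed, at 0.65 for *Snhg1* (adjusted p = 0.00388), 0.54 for *Gas5* (adjusted p = 0.00881) and 0.41 for *Snhg5* (adjusted p = 0.0100) on the log2 scale. Without Vehicle replicate 1 none of the 3 passed (adjusted p = 0.230 for *Snhg1*, 0.268 for *Gas5* and 0.102 for *Snhg5*). The hosts moved together with this library: in TCM all 7 hosts were lowest in replicate 1, and in Vehicle 6 of 7 were lowest in replicate 1. Among all tested genes, 38.6% were lowest of TCM and 40.8% lowest of Vehicle in replicate 1. The summed markers of T cells, B cells, neutrophils, and erythroid cells and platelets were also lowest in replicate 1 of both groups. Those of macrophages were lowest in replicate 1 of Vehicle but highest in replicate 1 of TCM. Dendritic cell markers were lowest in replicate 1 of neither group, and natural killer cell markers were highest in replicate 1 of both. The part of cell makeup in this was not tested.

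**Figure D1:**
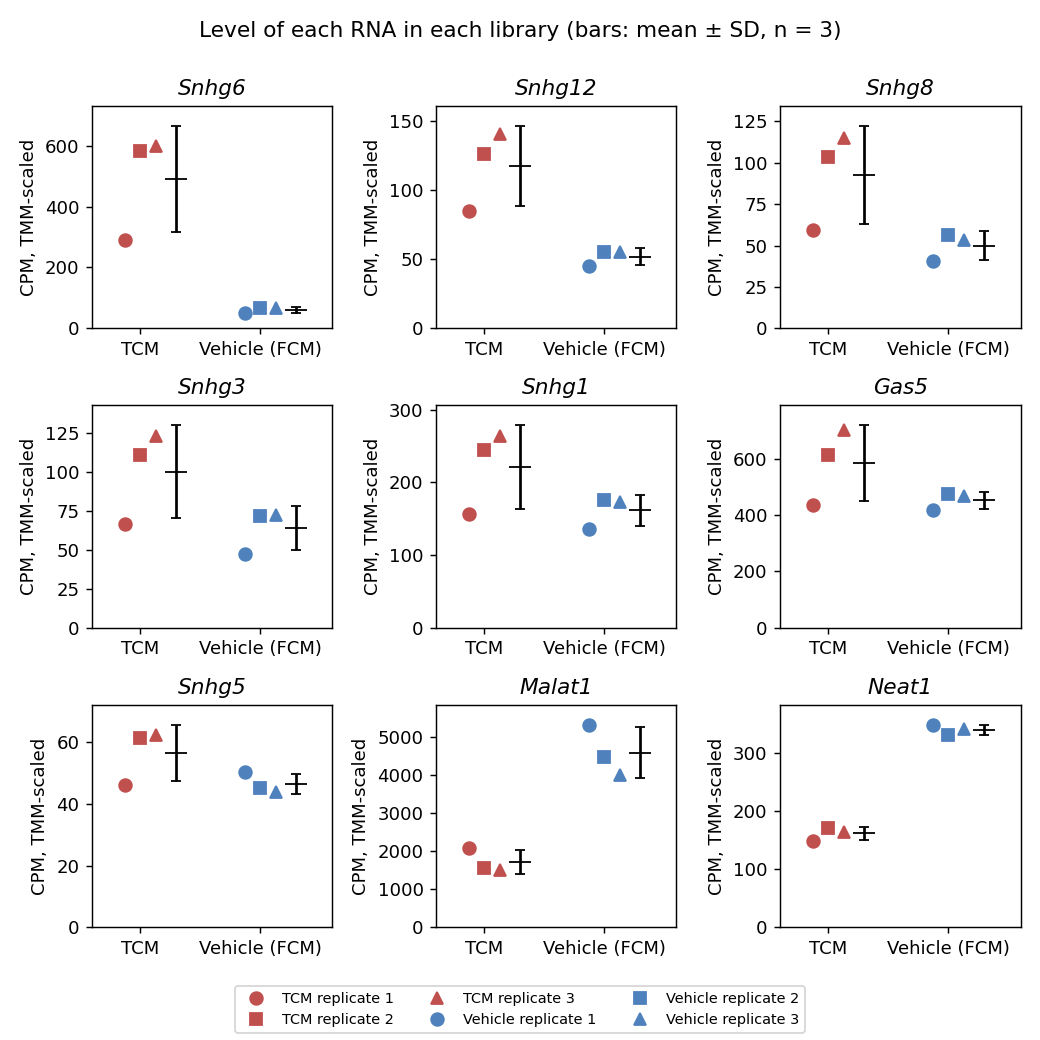
Level of each RNA in each library in CPM scaled with TMM (y axis, linear, from 0), with TCM on the left and Vehicle on the right of each panel. Symbols are replicates 1, 2 and 3 and black bars are mean ± SD (n = 3). All hosts except *Snhg5* were lowest in replicate 1 of both groups, and *Malat1* and *Neat1* were lower in every TCM library than in any Vehicle library.

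*Malat1*, on chromosome 19 (5795690 to 5802672, minus strand), had 2075, 1550 and 1514 CPM in TCM, against 5326, 4469 and 3996 CPM in Vehicle. Every TCM library lay below every Vehicle library, and replicate 1 was the highest of its group in both. *Malat1* was 2.68-fold lower in TCM, at 1713 ± 314 CPM against 4597 ± 674 CPM in Vehicle (SD, n = 3 each; log2 -1.42 ± 0.23 SE, edgeR adjusted p = 0.000758). It made up 0.163% ± 0.0559 of all counts in TCM and 0.501% ± 0.112 in Vehicle.

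*Neat1* lies on the same chromosome and strand (5824708 to 5845478). It had 148, 171 and 164 CPM in TCM, against 348, 331 and 340.1 CPM in Vehicle. The groups did not overlap, and the spread within each was the smallest of the 9 RNAs, at 7.39% of the mean in TCM and 2.45% in Vehicle. *Neat1* was 2.11-fold lower in TCM, at 161 ± 11.9 CPM against 340 ± 8.33 CPM in Vehicle (log2 -1.07 ± 0.14 SE, edgeR adjusted p = 0.000196). After removal of the length trend the difference was -0.56 on the log2 scale (adjusted p = 0.00851).

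The ratio of *Malat1* to *Neat1* counts was 14.0, 9.04 and 9.21 in TCM, against 15.3, 13.5 and 11.7 in Vehicle. TCM replicate 1 lay among the Vehicle libraries, so the groups overlapped. The log2 ratio differed by -0.35 (exact permutation test, 2-sided, p = 0.3, smallest p possible 0.1).

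**Figure D2:**
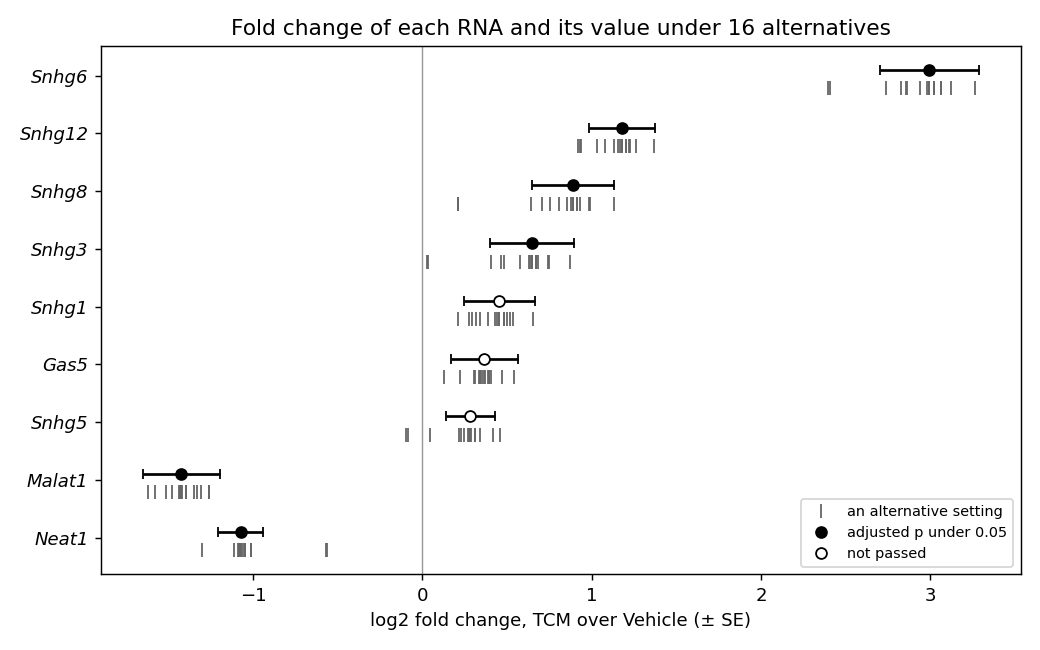
Log2 fold change of TCM over Vehicle (x axis) for each RNA, with circles and bars giving the estimate ± SE of the edgeR fit. Filled circles passed an adjusted p under 0.05 and grey ticks are the values under 16 alternative settings. *Snhg6* stood at 2.99, *Malat1* at -1.42, and the ticks of *Snhg5* reached -0.10.

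Levels of different RNAs were compared per kilobase of merged exons. In TCM the order was *Snhg6* (427 ± 152 CPM per kb), *Malat1* (245 ± 44.9), *Gas5* (155 ± 35.9), *Snhg8* (109 ± 34.6), *Snhg3* (102 ± 30.0), *Snhg1* (74.5 ± 19.3), *Snhg12* (49.0 ± 12.1), *Snhg5* (32.7 ± 5.25) and *Neat1* (7.77 ± 0.574; SD, n = 3 each). Among neighbours in that order, only *Malat1* and *Gas5*, and *Snhg5* and *Neat1*, did not overlap. In Vehicle the order was *Malat1* (658 ± 96.5 CPM per kb), *Gas5* (120 ± 8.23), *Snhg3* (64.9 ± 14.5), *Snhg8* (58.6 ± 9.97), *Snhg1* (54.4 ± 7.29), *Snhg6* (53.7 ± 8.98), *Snhg5* (26.9 ± 1.94), *Snhg12* (21.7 ± 2.49) and *Neat1* (16.4 ± 0.401). There *Snhg3*, *Snhg8*, *Snhg1* and *Snhg6* overlapped each with the next. *Snhg6* thus stood first in TCM and sixth in Vehicle. The merged exons of *Snhg1*, *Snhg8* and *Snhg12* cover their whole spans, introns of some transcripts included. Those of *Gas5* (3760 of 4118 bases) and *Snhg5* (1730 of 1880 bases) cover most of theirs. *Neat1* was divided by 20771 bases, the length of its long transcript, although 4 transcripts are annotated. The values per kb and the order, the last place of *Neat1* included, thus depend on the gene model.

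The make-up of the host RNA pool also differed. The 7 hosts summed to 1138, 1841 and 2006 CPM in TCM, against 787, 946 and 933 CPM in Vehicle. *Snhg6* held 25.3%, 31.6% and 29.9% of these counts in TCM, against 6.31%, 7.10% and 7.26% in Vehicle. *Gas5*, which held the most counts in every library, made up 35.6% ± 2.57 in TCM and 51.1% ± 1.69 in Vehicle. Without *Snhg6* the sum was 1172 ± 288 CPM in TCM and 827 ± 78.0 CPM in Vehicle.

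Within a library such shares do not depend on the scaling. In TCM the share of *Snhg6* was 2.07 higher on the log2 scale, and that of *Snhg12* 0.29 higher. The shares of *Gas5*, *Snhg1* and *Snhg5* were 0.53, 0.44 and 0.59 lower in TCM. In each of these 5 the groups did not overlap (exact permutation test, 2-sided, p = 0.1, the smallest possible with 3 against 3 libraries). The shares of *Snhg3* (exact permutation p = 0.3) and *Snhg8* (exact permutation p = 0.8) overlapped. A larger share of 1 host lowers those of the others by construction.

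**Figure D3:**
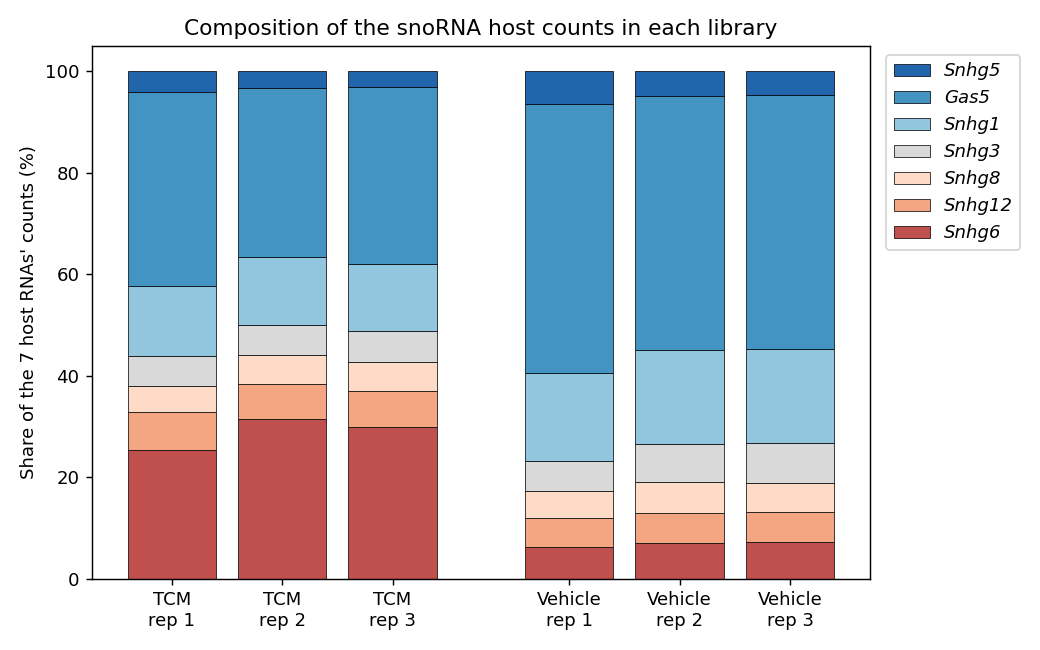
Share of the summed counts of the 7 host RNAs held by each host (y axis, percent) in the 3 TCM libraries (left) and the 3 Vehicle libraries (right). *Snhg6* held 25.3% to 31.6% in TCM and 6.31% to 7.26% in Vehicle, and *Gas5* held 33.3% to 38.4% in TCM and 50.1% to 53.1% in Vehicle.

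The snoRNA rows inside the hosts did not pass the test. The count table had rows for 8 snoRNAs inside the 7 hosts, of which 7 were tested. edgeR called 0 of them, 1 had an unadjusted p under 0.05, and DESeq2 also called 0. With the replicate block, with library totals alone, and without TCM replicate 2 or Vehicle replicate 2, 1 was called lower. *Snora24* had 0 counts in all 6 libraries. The median log2 fold change of the 7 was -0.19, and 0.04 with the length trend removed. How RNA of this length was kept in the libraries is not given in the sources used here, and reads of a snoRNA and of an unspliced host cannot be told apart.

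*Snord87*, in the *Snhg6* intron printed above, had 43, 39 and 38 counts in TCM, against 44, 83 and 73 in Vehicle. Its log2 fold change was -0.20 ± 0.21 SE (edgeR adjusted p = 0.441), beside 2.99 for *Snhg6*. The ratio of *Snhg6* to *Snord87* counts was 126, 228 and 281 in TCM, against 24.9, 21.6 and 23.9 in Vehicle. The groups did not overlap, and the log2 ratio was 3.10 higher in TCM (exact permutation test, 2-sided, p = 0.1, the smallest possible).

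*Snhg12* carries *Snord99*, *Snora16a*, *Snora44* and *Snora61*. *Snora16a* had 21, 24 and 18 counts in TCM, against 44, 40 and 54 in Vehicle (log2 -0.60, edgeR adjusted p = 0.0639). The log2 fold changes of *Snora44* (-0.32), *Snora61* (-0.16) and *Snord99* (0.00) had adjusted p-values of 0.224 to 0.992. The ratio of *Snhg12* to the sum of its 4 snoRNAs was 10.3, 13.2 and 17.2 in TCM, against 4.69, 5.21 and 5.48 in Vehicle, and the groups did not overlap (log2 difference 1.38, exact permutation test, 2-sided, p = 0.1).

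*Snord22* in *Snhg1* had 180, 234 and 254 counts in TCM, against 314, 405 and 394 in Vehicle (log2 -0.19 after scaling, edgeR adjusted p = 0.350). *Snord47* in *Gas5* had 90, 103 and 94 counts in TCM, against 143, 169 and 155 in Vehicle (log2 -0.17, edgeR adjusted p = 0.375). The log2 ratio of host to snoRNA was 0.64 higher in TCM for *Snhg1* and 0.52 higher for *Gas5*, and neither pair of groups overlapped (exact permutation test, 2-sided, p = 0.1 each). In all, 16 ratios were compared, and the Benjamini-Hochberg adjusted p of those at 0.1 was 0.123.

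**Figure D4:**
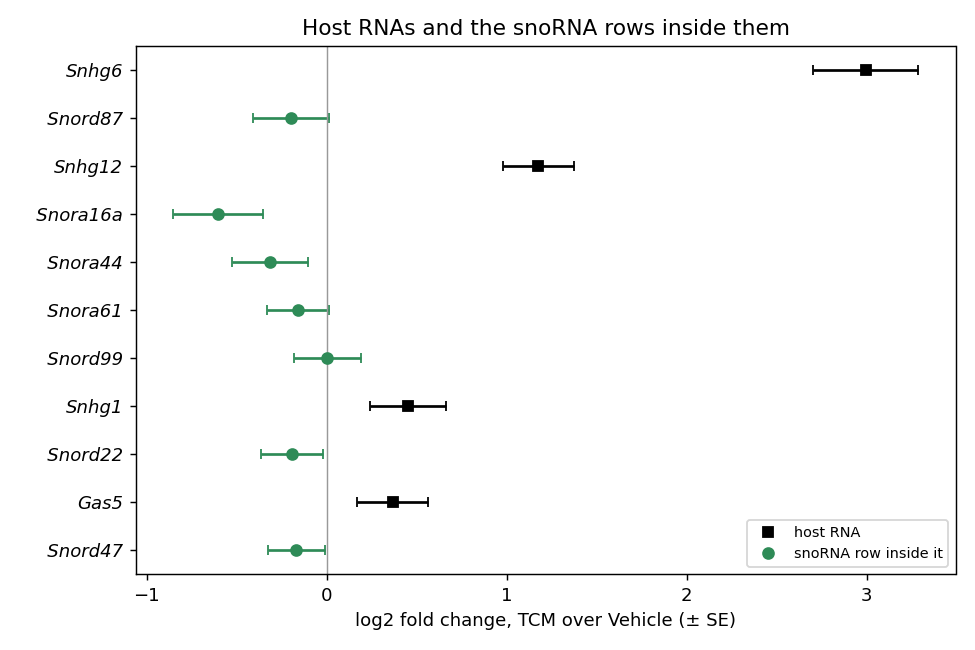
Log2 fold change of TCM over Vehicle ± SE (x axis) for 4 host RNAs (squares) and the snoRNA rows inside each (circles, listed under their host). *Snhg6* stood at 2.99 and *Snord87* at -0.20, and the 7 snoRNA rows lay between -0.60 and 0.00.

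All snoRNA rows of the table were counted next. Of 119 rows named as snoRNAs, 68 were tested: 2 rose, 26 fell and 40 did not pass, with a median log2 fold change of -0.57, where 30.0% of all tested genes fell. *Snora75* (-1.47), *Snord35a* (-1.52) and *Snord83b* (-1.21) fell with the smallest p-values, and *Snord104* (0.92) rose. With the length trend removed, 3 of the 68 rose and 12 fell, a smaller share than the 29.2% of all tested genes that fell in that fit, and the median was -0.28.

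Other annotated hosts were grouped by kind. The counts called in this and the later groups stand beside 28.8% of all tested genes that rose and 30.0% that fell. Those shares are of the edgeR fit on the group alone and differ between the alternatives. Of 29 ribosomal protein genes that hold a snoRNA, whose messenger RNAs are the textbook TOP messages, 20 rose, 1 fell and 8 did not pass, with a median of 0.72. *Rpl10* (0.91), *Rpl17* (0.84) and *Rpl23a* (0.80) had the smallest p-values. The number that rose was 9 to 13 without TCM replicate 2, TCM replicate 3, Vehicle replicate 1 or Vehicle replicate 2, and 9 with the length trend removed. Of 173 other tested protein-coding hosts, 38 rose, 53 fell and 82 did not pass, with a median of -0.05 (0.03 without Vehicle replicate 1). *Eng*, a TGF-beta coreceptor, had 3.79, *Tipin*, a replication fork protein, had 1.99, and *Lrrc28* had 1.98. Of 13 other tested hosts whose annotated type was not protein-coding, 4 rose and 4 fell, with a median of -0.38. This group is defined by the annotation label alone and also held *Cct6a*, a chaperonin subunit gene. *AA465934* (1.45) rose and *A430035B10Rik* (-1.39) fell. The number that fell was 2 without TCM replicate 2, 6 without TCM replicate 1 and 8 with the replicate block.

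Of 12 other noncoding snoRNA hosts listed, 5 were in the table and tested (*Snhg7*, *Snhg9*, *Snhg10*, *Snhg11* and *Dancr*). *Snhg9*, *Snhg10* and *Dancr* were also counted in the last group above, so the 2 groups are not separate. *Snhg7*, *Snhg9* and *Dancr* did not pass, although 1 listed RNA fell with the replicate block. *Snhg10* rose by 1.67 ± 0.30 SE on the log2 scale (edgeR adjusted p = 0.00140), with 34, 40 and 65 counts in TCM and 15, 24 and 24 counts in Vehicle. *Snhg11* had 13, 9 and 15 counts in TCM and 0 in each Vehicle library. It passed the filter on low counts through the TCM libraries alone, so no test is given, and without TCM replicate 3 it did not pass that filter. With a floor of 3 counts over the Vehicle group it was at least 17.7-fold higher in TCM.

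The proteins that bind and assemble snoRNAs moved in both directions, where 28.8% of all tested genes rose and 30.0% fell. Of 8 core proteins, 3 rose, 3 fell and 2 did not pass (median 0.18, but -0.11 with the length trend removed and -0.05 with library totals alone). *Nop56* (-0.82) and *Nop58* (-0.89), core proteins of box C/D particles, and *Dkc1* (-0.92), the pseudouridine synthase of box H/ACA particles, fell. The 3 that rose were *Nhp2l1* (1.17), *Nop10* (0.94) and *Nhp2* (0.51). Only 1 rose without TCM replicate 2, TCM replicate 3 or Vehicle replicate 1, and with the length trend removed. Of 9 assembly factors, *Znhit3* rose (1.18), 5 fell, among them *Ruvbl1* (-0.50) and *Pih1d1* (-0.39), and 3 did not pass (median -0.34). The number that fell was 1 by DESeq2, 1 without TCM replicate 2, TCM replicate 3, Vehicle replicate 1 or Vehicle replicate 2, and 3 without Vehicle replicate 3.

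Nonsense-mediated decay, which degrades many spliced host RNAs, and the exon junction complex that marks its targets were counted as 1 list. Of 15 factors, 2 rose, 6 fell and 7 did not pass, with a median of -0.28. *Smg1*, the kinase that activates Upf1, fell by 1.19 and *Smg6*, the endonuclease of the pathway, fell by 0.77 on the log2 scale, while *Smg9* rose (0.55). With 1 library left out at a time, 1 to 4 rose and 4 to 8 fell, the most without TCM replicate 1, and with the replicate block 4 rose and 8 fell.

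Proteins of the bodies that hold *Malat1* and *Neat1* are next. Of 10 nuclear speckle proteins, 1 rose (2 with the replicate block), 5 fell and 4 did not pass (median -0.44). *Son* (-1.05) and *Srrm2* (-0.91), the large proteins that form the speckle core, and *Sart1* (-0.82) fell, and 5 fell whichever library was left out. The number that rose was 2 without TCM replicate 1 and 0 without any 1 of the 5 other libraries. Of 15 paraspeckle proteins, 5 rose, 6 fell and 4 did not pass (median -0.06, and 0.05 without Vehicle replicate 1). *Nudt21*, a cleavage factor, rose (1.19), while *Cpsf7* (-0.57) and the chromatin remodeller *Smarca4* (-0.69) fell. *Nono* (-0.49) and *Sfpq* (-0.57), which bind *Neat1* directly, also fell and were named after their values were seen. The number of paraspeckle proteins that rose was 2 to 3 without TCM replicate 2, TCM replicate 3, Vehicle replicate 2 or Vehicle replicate 3, and 2 fell without TCM replicate 2.

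Of 12 genes that cut or stabilise the *Malat1* end, mostly RNase P subunits, 5 rose, 2 fell and 5 did not pass (median 0.32). With the length trend removed 4 rose and 3 fell and the median was -0.05, and with library totals alone 3 rose (median 0.08). *Rpp25* (1.97), *Rpp30* (1.12) and *Pop5* (0.94), all RNase P subunits, rose. The 2 that fell were *Mettl16* (-0.60) and *Elac2* (-0.55), named after their values were seen. The value of *Rpp25* (SE 0.41) rests on few counts, 16, 18 and 32 in TCM and 7, 12 and 5 in Vehicle. Of 13 other long noncoding RNAs listed, 9 were tested, 2 rose, 4 fell and 3 did not pass (median -0.20). Only 1 rose without TCM replicate 2, TCM replicate 3, Vehicle replicate 2 or Vehicle replicate 3. *Kcnq1ot1* (-1.44), an imprinted nuclear RNA, and *Ftx* (-1.49) and *Jpx* (-0.77), RNAs of the X inactivation centre, fell with the smallest p-values.

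Of 3 tested genes next to a host, 2 fell and 1 did not pass. *Slc3a2*, the heavy chain of amino acid transporters, starts 106 bases from *Snhg1* and had 255 ± 17.5 CPM in TCM and 460 ± 25.1 CPM in Vehicle (SD, n = 3 each; log2 -0.85 ± 0.14 SE, edgeR adjusted p = 0.000959). *Zbtb37* starts 427 bases from *Gas5* and shares 428 bases of its span but 0 exon bases. It had 9.49 ± 3.17 CPM in TCM and 16.9 ± 4.42 CPM in Vehicle (log2 -0.83 ± 0.25 SE, edgeR adjusted p = 0.0192). *Rcc1*, the exchange factor of Ran, shares strand and 135 exon bases with *Snhg3* and had 183 ± 24.2 CPM in TCM and 217 ± 22.6 CPM in Vehicle (log2 -0.25 ± 0.16 SE, edgeR adjusted p = 0.192). Whether the counting used strand is not given in the sources used here, so reads from shared bases cannot be told apart.

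The genes whose profile over the 6 libraries was nearest to each RNA were found by the root mean square distance of centred log2 CPM among 8667 genes. The nearest was *Ddit4*, a stress-induced inhibitor of mTORC1, for *Snhg6* (distance 0.097), with 2 genes within 0.1. It was *Rala* for *Snhg12* (0.020), *Arl6ip6* for *Snhg8* (0.030), *Mpc2* for *Snhg3* (0.025), *Ndnl2* for *Snhg1* (0.028), *Cd9* for *Gas5* (0.050) and *Hiatl1* for *Snhg5* (0.046). *Parp8* was nearest to *Malat1* and *D4Wsu53e* to *Neat1* (0.028 each). Among the 9 RNAs, *Snhg1* and *Gas5* were nearest to each other (0.085), as were *Malat1* and *Neat1* (0.29) and *Snhg3* and *Snhg8* (0.13), while the nearest to *Snhg6* was *Snhg12* at 0.90. Every profile rests on the same 6 libraries, so these distances are a description.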

How the data were processed

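RNA was measured in 6 libraries, 3 of TCM and 3 of Vehicle (FCM). Exon reads per gene were deposited as raw whole-number counts. The deposited normalized table holds a signal, in which the authors' values equal counts divided by 1 factor per library. The submitters' processing notes name STAR 2.7.2d, DESeq2 1.28.1 and the build mm10. What each did, the annotation, counting tool, strand setting and library preparation were not given in the sources used here. Whole reads were recovered from 100% of normalized values at a tolerance of 0.1 reads and refitted under that table's titles, which called 3726 genes higher and 3584 lower in TCM. 92 spike-in rows, with 0 counts, were left out.

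Low counts were removed with filterByExpr. TMM scaling and the quasi-likelihood test of edgeR 4.0.16 (R 4.3.3) followed, on the group alone, adjusted over 12423 genes (Benjamini-Hochberg). SE is the log2 fold change over the square root of F, and the common biological variation was 15.3%. The fit was tested on simulated data. DESeq2 1.42.0, other scalings and filters, a replicate block, removal of the trend on exon length (known for 11656 genes), and leaving out libraries were alternatives. Lengths, snoRNAs and overlaps came from GENCODE M21 (GRCm38, which is mm10), and starts also from RefSeq. The counts given with the results limit their precision.

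Deviations of same-numbered libraries from their group means correlated across genes at r = 0.600, 0.146 and 0.360 for numbers 1, 2 and 3. Crossing numbers 2 and 3 gave 0.424 and 0.266, so the values set number 1 apart but do not pair numbers 2 and 3. The replicate block assumes the pairing by number and is given as an alternative only. In each list the tested genes named are the 3 called with the smallest p; other genes named in a list, such as those of a small count, were chosen after their values were seen. The ratios of host to snoRNA were also added after the data were seen. The members and lists were chosen with earlier results of these data known.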

Additional observations from a re-analysis of the deposited data

How the results depend on the processing

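The titles of the normalized table reversed every fold change: they gave -2.99 for *Snhg6*, -1.18 for *Snhg12*, -0.89 for *Snhg8*, -0.65 for *Snhg3*, -0.45 for *Snhg1*, -0.37 for *Gas5*, -0.28 for *Snhg5*, 1.42 for *Malat1* and 1.07 for *Neat1*, with 2 RNAs called higher and 4 lower. No value in the sources used here settles which titles are right. Apart from that, *Snhg6* (log2 2.39 to 3.27), *Snhg12* (0.92 to 1.37), *Malat1* (-1.62 to -1.26) and *Neat1* (-1.30 to -0.56) kept their direction and call in all 16 alternatives. *Snhg8* kept its call in 13 and *Snhg3* in 8, and *Snhg1* and *Gas5* passed in 4 and *Snhg5* in 3. With the length trend removed *Snhg5* turned to -0.10, and to -0.087 with the replicate block as well, and neither passed (adjusted p = 0.523 and 0.450). The cause was not tested. The number of RNAs called higher was 4, beside 28.8% of all tested genes. It was 7 with the replicate block and 7 when both libraries numbered 1 were left out, beside 36.3% of all tested genes in each fit. With the length trend removed it was 2, beside 29.2%. With each library left out in turn it was 2 to 7. It was lowest without TCM replicate 2 (2878 of 12659 tested genes higher) and highest without TCM replicate 1 (4030 of 12650). The number called lower was 2 in all 16. All genes called numbered 7310, and 5696 to 8229 with 1 library left out. Library totals in place of TMM moved the median log2 fold change of all genes to -0.23. They gave 2364 genes higher and 3965 lower, 37.4% of calls higher against 49.0%, and 3 RNAs called higher. The block changed the calls of *Snhg1*, *Gas5* and *Snhg5* and no other of the 9 RNAs. Depth limits the snoRNA rows, several of which had under 100 counts per library.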
